A study of Mus musculus with 9 samples.

Results

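The data describe 40 genes of the interferon response and of antigen presentation in NMuMG cells, an established line of normal mouse mammary gland epithelium. The genes were taken by symbol from a list chosen with earlier results of these data known, and all 40 were among the 52459 gene symbols of the deposited files. RNA-Seq was made from 9 libraries of untreated cells. The 3 mock libraries (203, 204 and 205) came from cells with the empty vector, the 3 EPR libraries (206, 207 and 208) from cells stably overexpressing the long noncoding RNA EPR, and the 3 EPRSTOPE libraries (209, 210 and 211) from cells overexpressing EPR in which the second codon of its short open reading frame was changed to a stop. All of these cells went through stable transfection and G418 selection and were used as pools of transfectants. The study's methods call the 3 libraries of a condition biological triplicates, without stating whether these were separate pools of transfectants or separate cultures of 1 pool, and p-values measure the spread between these libraries.

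Interferons are secreted proteins that signal through pairs of cell-surface receptors and JAK kinases to STAT factors. After type I interferon, STAT2 acts with IRF9 in a complex that binds the interferon-stimulated response element (ISRE). Interferon gamma acts on genes with the gamma-activated site (GAS). The induced genes encode sensors of foreign RNA, enzymes and GTPases that block viruses, and the machinery that cuts proteins into peptides, carries them into the endoplasmic reticulum and loads them on class I molecules of the major histocompatibility complex, which nearly every nucleated cell displays. Epithelial cells of the mammary gland are able to respond to both kinds of interferon.

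The response element is visible in some promoters of these genes, and the stretches printed here come from the members whose levels are described in what follows. RefSeq promoter windows on GRCm38.p6, of 250 bases before to 50 bases after a start, were found for 31 of the 40 genes. The ISRE-type sequence GAAANNGAAA, searched on both strands, was present in the windows of 14 of these 31 genes, and in those of 1079 of all 27025 genes (3.99%). The GAS-type sequence TTCNNNGAA, also searched on both strands, was present in 6 of the 31 genes and in 9.55% of all genes. Each stretch is given 5′ to 3′ on the gene's strand, with its place in GRCm38.p6, and the capitals mark ISRE-type matches, merged where they overlap.
Oas1a, chr5:120907526-120907570, minus strand, 2 matches: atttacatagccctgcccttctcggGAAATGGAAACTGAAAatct
Oas3, chr5:120777700-120777759, minus strand, 1 match: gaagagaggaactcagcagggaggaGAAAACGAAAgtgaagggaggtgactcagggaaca
Isg15, chr4:156200850-156200921, minus strand, 3 matches: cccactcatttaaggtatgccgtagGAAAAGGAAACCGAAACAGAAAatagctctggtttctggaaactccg
Rsad2, chr12:26456538-26456597, minus strand, 1 match read on the other strand: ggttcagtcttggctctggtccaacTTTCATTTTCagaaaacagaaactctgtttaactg
Bst2, chr8:71537562-71537627, minus strand, 2 matches: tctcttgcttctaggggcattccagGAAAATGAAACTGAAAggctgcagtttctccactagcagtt
B2m, chr2:122147523-122147582, plus strand, 1 match: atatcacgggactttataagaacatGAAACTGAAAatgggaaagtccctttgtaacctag
Of these 6 genes, *Oas1a* and *Oas3* are members that rose in both EPR and EPRSTOPE cells, and *Isg15* and *Rsad2* rose in EPRSTOPE cells. *Bst2* fell in EPRSTOPE cells, and *B2m* was lower in EPR cells but within the fold limit given below. By the limits given below, the match was present in 3 of 7 higher, 0 of 1 lower and 8 of 15 uncalled members with a window in EPR cells against mock. For EPRSTOPE cells against mock it was present in 5 of 10 higher, 2 of 3 lower and 4 of 10 uncalled members. A match is a description of the letters and was not tested as a binding site.

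The libraries held 5972457 to 11876435 estimated counts, and levels are given as CPM, the counts of a gene for every 1000000 counts of its library, normalized by the TMM method of edgeR. In single libraries 3 counts corresponded to 0.253 to 0.502 CPM. EPR RNA itself (annotated as *BC030870*) was at 0 to 0.163 CPM in the mock libraries, at 23.7 to 27.0 CPM in the EPR libraries and at 3.80 to 4.74 CPM in the EPRSTOPE libraries, without overlap between the conditions. *Krt8* and *Krt18*, keratins of simple epithelia, were above 1440 CPM in every library and rose in both overexpressing conditions, by log2 fold changes of 1.32 and 1.29 in EPR and 1.503 and 1.44 in EPRSTOPE cells. Both lie on chromosome 15, where the median log2 fold change of 525 tested genes was 0.49 in EPR and 0.52 in EPRSTOPE cells. The part of this shift in their values was not tested. *Cdh1*, the epithelial cadherin, was at 0.311 to 1.16 CPM in the mock libraries and at 381 to 569 CPM in the others. The 10 epithelial markers summed to 3694.67 to 4160.43 CPM in mock, 9492.17 to 10599.1 CPM in EPR and 10683.6 to 11021.9 CPM in EPRSTOPE libraries, and of the 8 tested, 6 rose and 1 (*Krt14*) fell in EPR cells and 3 rose in EPRSTOPE cells. The part of this difference in the values of the interferon and antigen presentation genes was not tested. Of 10 immune cell markers none reached a mean of 1 CPM in any condition, with summed levels of 1.63 to 4.19 CPM in mock, 1.05 to 3.16 CPM in EPR and 1.27 to 1.60 CPM in EPRSTOPE libraries, and with *Adgre1* and *Tyrobp* at 0 in all 9. Of 9 fibroblast markers, *Vim* made up nearly all of the summed level, at 2535.97 to 2744.88 CPM in mock, 1643.94 to 1843.42 CPM in EPR and 3016.37 to 3233.85 CPM in EPRSTOPE libraries, and it fell in EPR cells (log2 fold change -0.57, adjusted p = 2.5e-06). The collagens *Col1a1*, *Col1a2* and *Col3a1* had means under 1 CPM in each condition, and *Pdgfra*, a growth factor receptor of fibroblasts, had no counts in mock and means of 1.19 CPM in EPR and 1.297 CPM in EPRSTOPE libraries, called higher in both (adjusted p = 0.00017 and 0.00014). In these bulk libraries fewer cells that express a gene and less RNA of it per cell cannot be told apart.

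Of the 40 genes, 28 reached 1 CPM in at least 3 libraries and were tested by edgeR's quasi-likelihood test, fitted to the 15370 genes that passed this filter, with Benjamini-Hochberg adjustment over all of them. A gene was called higher or lower where the adjusted p was under 0.01 and the log2 fold change was beyond 0.5 in size. Against mock, 9 of the tested members were higher and 1 was lower in EPR cells, where 15.2% of all tested genes were called higher and 12.9% lower. In EPRSTOPE cells 12 were higher and 3 lower against mock, beside 15.6% and 12.4% of all tested genes. These comparisons share their mock libraries. In EPR against EPRSTOPE cells, 3 members were called higher and 7 lower, beside 6.86% and 6.35% of all tested genes. The median log2 fold change of the 28 members was 0.59 in EPR and 0.59 in EPRSTOPE cells against mock, the same with *Oas2* and *Rsad2*, which had no counts in mock, set to their lower bounds, and was -0.23 for EPR against EPRSTOPE. The medians of all tested genes were -0.01, -0.04 and 0.01. Because the list was chosen with earlier results known, setting its counts and medians against all tested genes is not independent of these data. The counts and medians are also not independent of the filter, since *Mx1* passed it only through the EPR libraries and *Nlrc5*, *Oas2*, *Isg15* and *Rsad2* only through the EPRSTOPE libraries. *Ifit1*, *Oas1a*, *Oasl1* and *Tap1* likewise passed it with no mock library at 1 CPM. *Gbp3*, which had 31 counts in mock, 2 in EPR and 3 in EPRSTOPE libraries, did not pass. The 12 genes that were not tested (*Zbp1*, *Ifit3*, *Ifit3b*, *Oasl2*, *Mx2*, *Gbp3*, *Usp18*, *Cmpk2*, *Ifi44*, *Rtp4*, *Psmb8* and *Psmb9*) lay between 0 and 1.55 CPM and 7 of them were under 1 CPM in all 9 libraries. With 3 libraries against 3, an exact two-sided permutation test of a single gene cannot go below p = 0.1, which is what it gave for every called member.

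**Figure D1:**
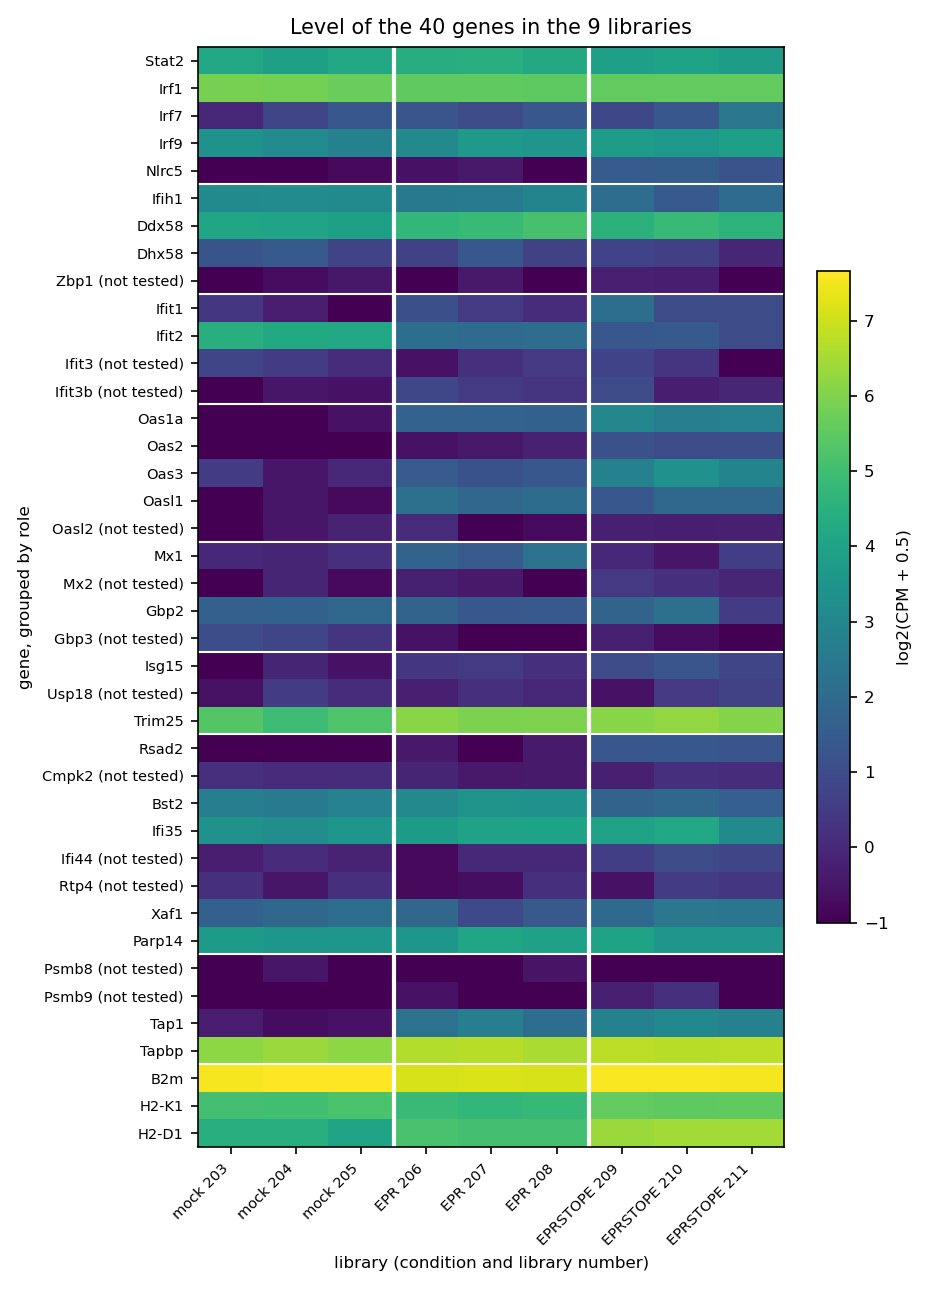
Colour shows log2(CPM + 0.5) of each of the 40 genes (rows, grouped by role, with the 12 that were not tested marked) in the 9 libraries (columns, by condition and library number). *B2m*, *Tapbp* and *Irf1* are high in every library, most members are near the bottom of the scale, and *Oas1a*, *Oasl1* and *Tap1* change from the bottom of the scale in mock to higher levels in EPR and EPRSTOPE libraries.

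Levels differed widely among the members. On the per-length TPM scale *B2m* was the highest, with a mean of 288 TPM in mock, 181 TPM in EPR and 261 TPM in EPRSTOPE libraries. *Tapbp* followed with mean levels of 61.3, 57.6 and 65.2 TPM, and none of the 12 members that were not tested had a mean above 0.931 TPM in any condition. So the class I light chain and its loading factor were abundant, while most of the antiviral effectors were rare in the same libraries.

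Among the 5 transcription regulators, no member was called in EPR cells against mock by edgeR, DESeq2 or limma, and 2 had an unadjusted p under 0.05. *Stat2*, a part of the type I interferon complex, measured 17.2, 14.5 and 17.6 CPM in the mock, 20.3, 21.6 and 18.3 CPM in the EPR and 14.4, 15.6 and 13.0 CPM in the EPRSTOPE libraries. All EPR libraries were above all others, but the log2 fold change was 0.29 against mock (SE 0.12, adjusted p = 0.067) and 0.48 against EPRSTOPE (SE 0.12, adjusted p = 0.011), neither of which passed. The latter of *Stat2* passed without a filter (log2 fold change 0.50, adjusted p = 0.008) and with at least 10 counts in every library (0.51, adjusted p = 0.0069). *Irf9*, the DNA-binding part of the same complex, measured 10.2, 8.55 and 6.43 CPM in mock, 8.38, 12.4 and 11.03 CPM in EPR and 13.2, 11.85 and 14.2 CPM in EPRSTOPE libraries. The EPRSTOPE libraries lay above the mock libraries, with a log2 fold change of 0.66 that did not pass with edgeR (SE 0.20, adjusted p = 0.017). This comparison of *Irf9* did pass with DESeq2 (adjusted p = 0.0097), without a filter (adjusted p = 0.0052), with counts scaled from TPM (log2 fold change 1.18, adjusted p = 0.0024) and without mock library 203 (adjusted p = 0.0088). *Irf9* lies on chromosome 14, where the median log2 fold change of 490 tested genes was 0.49 in EPR and 0.59 in EPRSTOPE cells, and the part of this shift in its value was not tested.

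*Irf1*, a factor induced by interferon gamma, was at 50.4 to 59.0 CPM in mock, 44.8 to 45.8 CPM in EPR and 47.0 to 47.8 CPM in EPRSTOPE libraries. Its log2 fold change of -0.29 in EPR cells had an adjusted p of 0.0061 but stayed within the limit of 0.5. *Irf7*, which amplifies type I interferon production, ranged from 0.466 to 4.95 CPM with overlapping conditions. *Nlrc5*, a transactivator of class I genes, differed most within the group. It had 1 count in the mock, 4 counts in the EPR and 53 counts in the EPRSTOPE libraries, the last at 1.84 to 2.46 CPM, and rose in EPRSTOPE cells (adjusted p = 0.00014). The ratio of the pooled levels, EPRSTOPE to mock, was 62.4 with a 95% interval of 10.7 to 2512 from the counts, so that its size is poorly known, and the fitted log2 fold change of 5.52 was 7.29 without mock library 205. In EPR cells *Nlrc5* was lower than in EPRSTOPE cells, with a log2 fold change of -3.92 (SE 0.67, adjusted p = 0.00088, and -3.32 without EPR library 208).

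Of the cytoplasmic RNA sensors, one rose in both overexpressing conditions and another fell in EPRSTOPE cells. *Ddx58*, which encodes RIG-I, measured 17.1, 16.1 and 14.6 CPM in the mock, 26.0, 28.4 and 34.7 CPM in the EPR and 23.04, 28.5 and 23.7 CPM in the EPRSTOPE libraries. Every overexpressing library was above every mock library. *Ddx58* rose by a log2 fold change of 0.91 in EPR cells (SE 0.13, adjusted p = 0.00011) and of 0.67 in EPRSTOPE cells (SE 0.13, adjusted p = 0.0013). With counts scaled from TPM its log2 fold changes of 0.78 and 0.66 no longer passed (adjusted p = 0.027 and 0.06), and with protein-coding transcripts only the increase in EPRSTOPE cells did not pass either (0.72, adjusted p = 0.031).

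*Ifih1*, which encodes MDA5, measured 8.39, 8.55 and 8.38 CPM in mock, 5.15, 5.43 and 6.92 CPM in EPR and 3.73, 2.24 and 3.57 CPM in EPRSTOPE libraries. The conditions did not overlap. It fell in EPRSTOPE cells (log2 fold change -1.43, SE 0.23, adjusted p = 0.00028), while its log2 fold changes of -0.53 in EPR cells against mock (adjusted p = 0.058) and 0.89 in EPR against EPRSTOPE cells (adjusted p = 0.013) did not pass. The latter of *Ifih1* passed with protein-coding transcripts only (log2 fold change 1.25, adjusted p = 0.0032) and with at least 10 counts in every library (0.93, adjusted p = 0.0062). *Dhx58*, the regulatory helicase LGP2, was at 0.46 to 2.22 CPM and was called in no comparison, and *Zbp1*, a sensor of Z-form nucleic acids, had 11 counts in all.

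**Figure D2:**
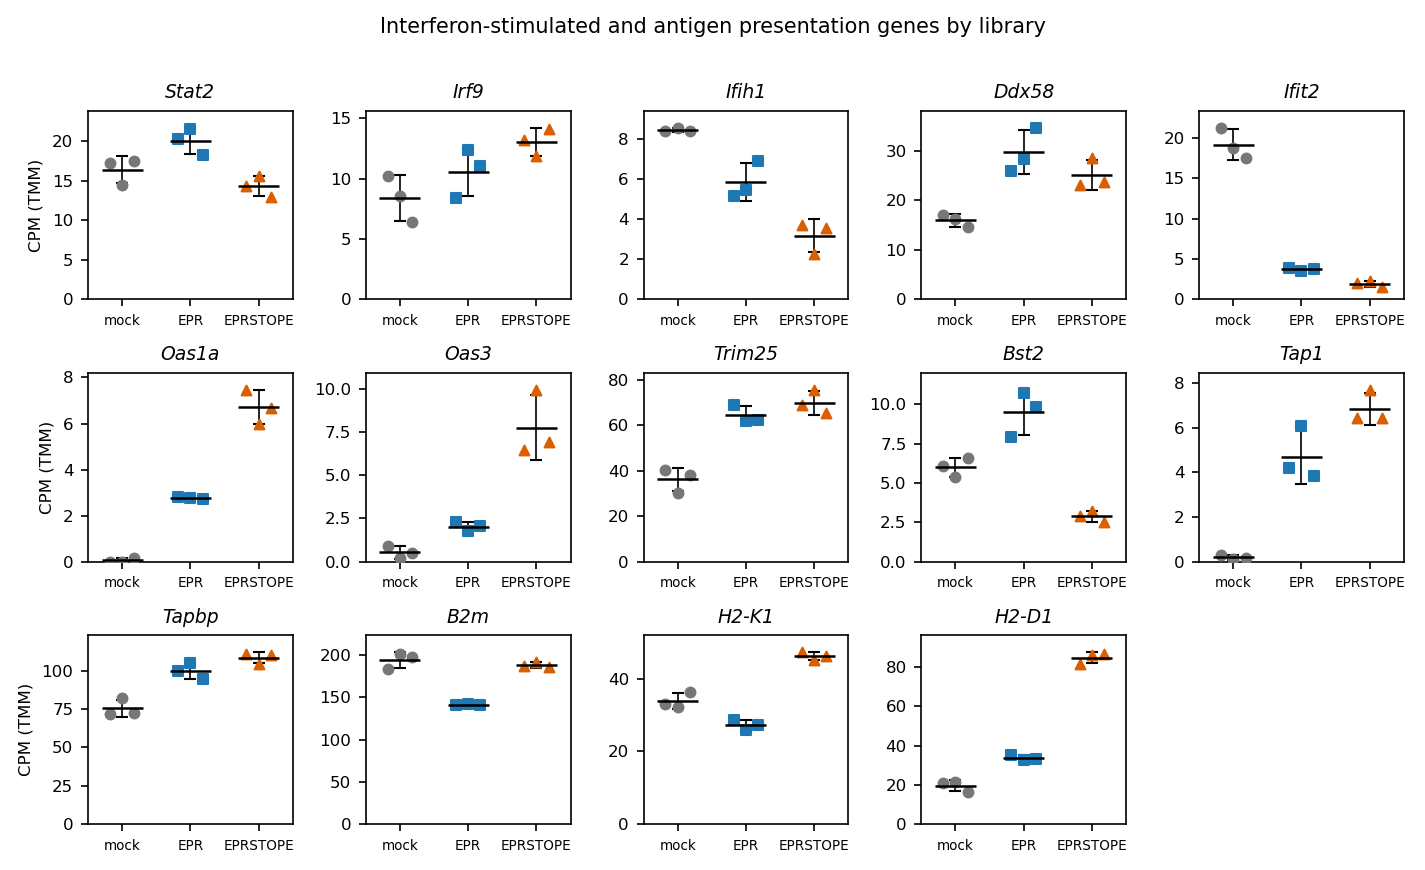
Each panel plots the level of 1 gene in CPM from 0 (vertical axis) for the 3 mock, 3 EPR and 3 EPRSTOPE libraries (points), with the mean (horizontal line) and SD (bars) of the 3 libraries. *Ifit2* was at 17.5 to 21.3 CPM in mock and under 4 CPM elsewhere, *Oas1a*, *Oas3* and *H2-D1* stepped up from mock to EPR to EPRSTOPE, and *Bst2* was highest in EPR and lowest in EPRSTOPE libraries.

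The IFIT genes, whose products bind viral RNA, lie within 99.3 kb of chromosome 19. *Ifit2* measured 21.3, 18.8 and 17.5 CPM in the mock, 3.84, 3.54 and 3.74 CPM in the EPR and 2.03, 2.24 and 1.496 CPM in the EPRSTOPE libraries. No library of either overexpressing condition came near the mock level. *Ifit2* fell by 2.36 on the log2 scale in EPR cells (SE 0.17, adjusted p = 3.3e-07) and by 3.31 in EPRSTOPE cells (SE 0.19, adjusted p = 4.2e-08). The median log2 fold change of the tested genes of chromosome 19 was -0.02 in EPR and -0.55 in EPRSTOPE cells, and its part in these values was not tested. The neighbours of *Ifit2*, *Ifit1* (0 to 3.90 CPM), *Ifit3* (0 to 1.24 CPM) and *Ifit3b* (0 to 1.53 CPM), were near the detection limit. *Ifit1* had its EPRSTOPE libraries above its mock libraries, with a log2 fold change of 2.82 that did not pass with edgeR (adjusted p = 0.014) and was called by DESeq2. *Ifit3* and *Ifit3b* are close copies, and summed they reached 0.46 to 2.71 CPM with no call.

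Between EPR and EPRSTOPE cells *Ifit2* was called higher in EPR by 0.95 on the log2 scale (SE 0.21, adjusted p = 0.0053). The median of 477 tested genes of chromosome 19 differed in the same direction, by 0.55, and its part in the value was not tested. With counts scaled from TPM the log2 fold change was -0.02, and DESeq2 and limma left the gene outside the limit (adjusted p = 0.012 and 0.026). Of the 9 fits that leave out 1 library, those without mock library 204, without EPR library 206, 207 or 208 and without EPRSTOPE library 209 or 211 lost the call, at adjusted p values of 0.011 to 0.026.

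The OAS family, enzymes that make 2′-5′ oligoadenylates on double-stranded RNA and so activate the RNase L pathway, had mock levels near 0, and 4 of its 5 members were tested. Each of these 4 was called higher in EPR and in EPRSTOPE cells by edgeR, beside 15.2% and 15.6% of all tested genes. DESeq2 called 3 of them in EPR and 4 in EPRSTOPE cells. *Oas1a*, *Oas2* and *Oasl1* had no mock library at 1 CPM, and *Oas3* had 1. These members reached the test largely through overexpressing libraries, so these counts are not independent of the filter. *Oas1a* measured 0, 0 and 0.163 CPM in the mock, 2.79, 2.78 and 2.71 CPM in the EPR and 7.45, 5.98 and 6.67 CPM in the EPRSTOPE libraries. From 2 counts in mock it went to 83 counts in EPR, a ratio of 38.9 (95% interval 10.4 to 327), and to 158 counts in EPRSTOPE cells, a ratio of 93.1 (25.3 to 775). Both mock counts were in library 205, and without it the fitted log2 fold changes of 5.05 and 6.32 became 7.60 and 8.87. The increase passed in EPR cells (adjusted p = 1.2e-05) and in EPRSTOPE cells (adjusted p = 8.2e-07). *Oas1a* has near-identical copies among the Oas1 genes, so its own share of the counts is uncertain. The 8 Oas1 genes summed were at 1.06 to 2.95 CPM in mock, 5.81 to 6.73 CPM in EPR and 9.55 to 12.0 CPM in EPRSTOPE libraries, with log2 fold changes of 1.86 and 2.65 against mock that both passed.

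*Oas3* measured 0.932, 0.211 and 0.488 CPM in mock, 2.27, 1.77 and 2.06 CPM in EPR and 6.44, 9.93 and 6.90 CPM in EPRSTOPE libraries. The conditions did not overlap. It rose by a log2 fold change of 1.99 in EPR cells (SE 0.44, adjusted p = 0.0024) and of 3.91 in EPRSTOPE cells (SE 0.40, adjusted p = 6.5e-06). Without mock library 204 or without mock library 205 the change in EPR cells did not pass (log2 fold change 1.61 and 1.95, adjusted p = 0.011 and 0.013). *Oas2*, which lies beside *Oas3* and *Oas1a* within 177.2 kb of chromosome 5, had no counts in mock, 8 counts in EPR and 38 counts in EPRSTOPE libraries, and was at least 2.501-fold and at least 14.9-fold higher than mock, taking a floor of 3 counts over the mock libraries. The call of *Oas2* in EPR cells (adjusted p = 0.0085) was lost in each of the 9 fits that leave out 1 library and under DESeq2 (adjusted p = 0.024).

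*Oasl1*, an OAS-like protein without the enzyme activity, followed with 0, 0.211 and 0.0814 CPM in mock, 3.16 to 4.10 CPM in EPR and 2.03 to 3.34 CPM in EPRSTOPE libraries. It rose in both (adjusted p = 1e-05 and 2.3e-05), with count ratios of 34.7 (95% interval 11.6 to 171) and 27.9 (9.16 to 138). Without mock library 204 its log2 fold changes of 4.94 and 4.60 became 5.78 and 5.45. *Oasl2* stayed at 0 to 0.524 CPM. Against EPRSTOPE, *Oas1a*, *Oas2* and *Oas3* were lower in EPR cells, with log2 fold changes of -1.27 (SE 0.31, adjusted p = 0.0083), -2.52 (SE 0.51, adjusted p = 0.0045) and -1.92 (SE 0.33, adjusted p = 0.00092). The value of *Oasl1* was 0.33 and did not pass (SE 0.34, adjusted p = 0.51). The *Oas1a* call was lost with the Oas1 copies summed (log2 fold change -0.79, adjusted p = 0.038) and without any of the 6 EPR and EPRSTOPE libraries (adjusted p 0.017 to 0.033), and the *Oas2* call without any of these 6 libraries (0.012 to 0.023). *Oas3* kept its call in all 9 fits that leave out 1 library.

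Of the 4 GTPases 2 were tested, and 1 was called higher in EPR cells, beside 15.2% of all tested genes. This was *Mx1*, which passed the filter only through the EPR libraries. *Mx1*, a dynamin-like antiviral GTPase, was at 0.422 to 0.651 CPM in mock, 2.27 to 4.30 CPM in EPR and 0.214 to 1.04 CPM in EPRSTOPE libraries. It rose in EPR cells (log2 fold change 2.56, SE 0.50, adjusted p = 0.001) and was higher there than in EPRSTOPE cells (log2 fold change 2.41, SE 0.50, adjusted p = 0.0034), a call that was lost without EPR library 208 (adjusted p = 0.017) or EPRSTOPE library 209 or 210 (adjusted p = 0.012 and 0.014) and was 3.19 without EPRSTOPE library 211. Against mock its log2 fold change in EPRSTOPE cells was 0.15 (SE 0.61, adjusted p = 0.86). *Mx2* was at 0 to 0.847 CPM. *Gbp2*, a guanylate-binding protein that attacks vacuoles of intracellular pathogens, was at 0.921 to 4.06 CPM and was called in no comparison. *Gbp3* was not tested, with 31 counts in mock, 2 in EPR and 3 in EPRSTOPE libraries.

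*Isg15*, a ubiquitin-like modifier, had 0 to 0.422 CPM in mock, 0.654 to 0.884 CPM in EPR and 1.27 to 1.92 CPM in EPRSTOPE libraries. The conditions did not overlap, although they rest on 6, 23 and 38 counts. It rose in EPRSTOPE cells (log2 fold change 2.83, SE 0.62, adjusted p = 0.0024), a call lost without mock library 205 (adjusted p = 0.015) or EPRSTOPE library 210 (adjusted p = 0.01) and at 3.76 without mock library 204, and its value of 1.80 in EPR cells did not pass (adjusted p = 0.038). *Trim25*, a ubiquitin and ISG15 ligase that activates RIG-I, measured 40.1, 30.3 and 37.9 CPM in the mock, 69.0, 61.9 and 62.4 CPM in the EPR and 68.6, 75.4 and 65.2 CPM in the EPRSTOPE libraries. All 6 overexpressing libraries were above the mock libraries. *Trim25* rose by log2 fold changes of 0.84 (SE 0.10, adjusted p = 2.6e-05) and 0.95 (SE 0.10, adjusted p = 9.4e-06), and its difference between EPR and EPRSTOPE cells was -0.11 (SE 0.10, adjusted p = 0.43). *Usp18*, which removes ISG15 from its targets, was at 0.155 to 1.15 CPM.

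Among the 5 other effectors tested, *Bst2* and *Rsad2* were called between EPR and EPRSTOPE cells. *Bst2*, which encodes tetherin, a membrane protein that holds budding viruses at the cell surface, measured 6.06, 5.38 and 6.59 CPM in mock, 7.94, 10.7 and 9.81 CPM in EPR and 2.88, 3.20 and 2.53 CPM in EPRSTOPE libraries. The conditions did not overlap. *Bst2* fell by 1.06 on the log2 scale in EPRSTOPE cells against mock (SE 0.21, adjusted p = 0.0013), and its value of 0.65 in EPR cells did not pass (SE 0.19, adjusted p = 0.013). The value in EPR cells passed with at least 10 counts in every library (0.66, adjusted p = 0.0073). The difference between EPR and EPRSTOPE cells was 1.71 (SE 0.21, adjusted p = 6.6e-05), a 3.28-fold higher level in EPR cells.

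*Rsad2*, which encodes viperin, an enzyme that makes a chain-terminating nucleotide, had no counts in mock, 6 counts in EPR and 49 counts in EPRSTOPE libraries. In the EPRSTOPE libraries it was at 1.96 to 2.14 CPM, at least 19.2-fold above mock (adjusted p = 0.00021), and the EPR level was lower than the EPRSTOPE level (log2 fold change -3.30, SE 0.63, adjusted p = 0.0031, but 0.011 without EPR library 206 or 208). Its neighbour on chromosome 12, *Cmpk2*, a nucleotide kinase often induced together with it, stayed at 0.253 to 0.641 CPM in all 9 libraries. *Ifi35* (8.17 to 17.2 CPM), *Parp14* (10.9 to 17.1 CPM) and *Xaf1* (1.39 to 4.91 CPM) were called in no comparison. *Ifi44*, at 0.0873 to 0.528 CPM in mock and EPR and at 1.02 to 1.49 CPM in EPRSTOPE libraries, did not overlap between EPRSTOPE and the other conditions, but rests on 12, 10 and 31 counts and was not tested, since EPRSTOPE library 209 was under 1 CPM before TMM normalization. *Rtp4* was at 0.0873 to 0.961 CPM.

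**Figure D3:**
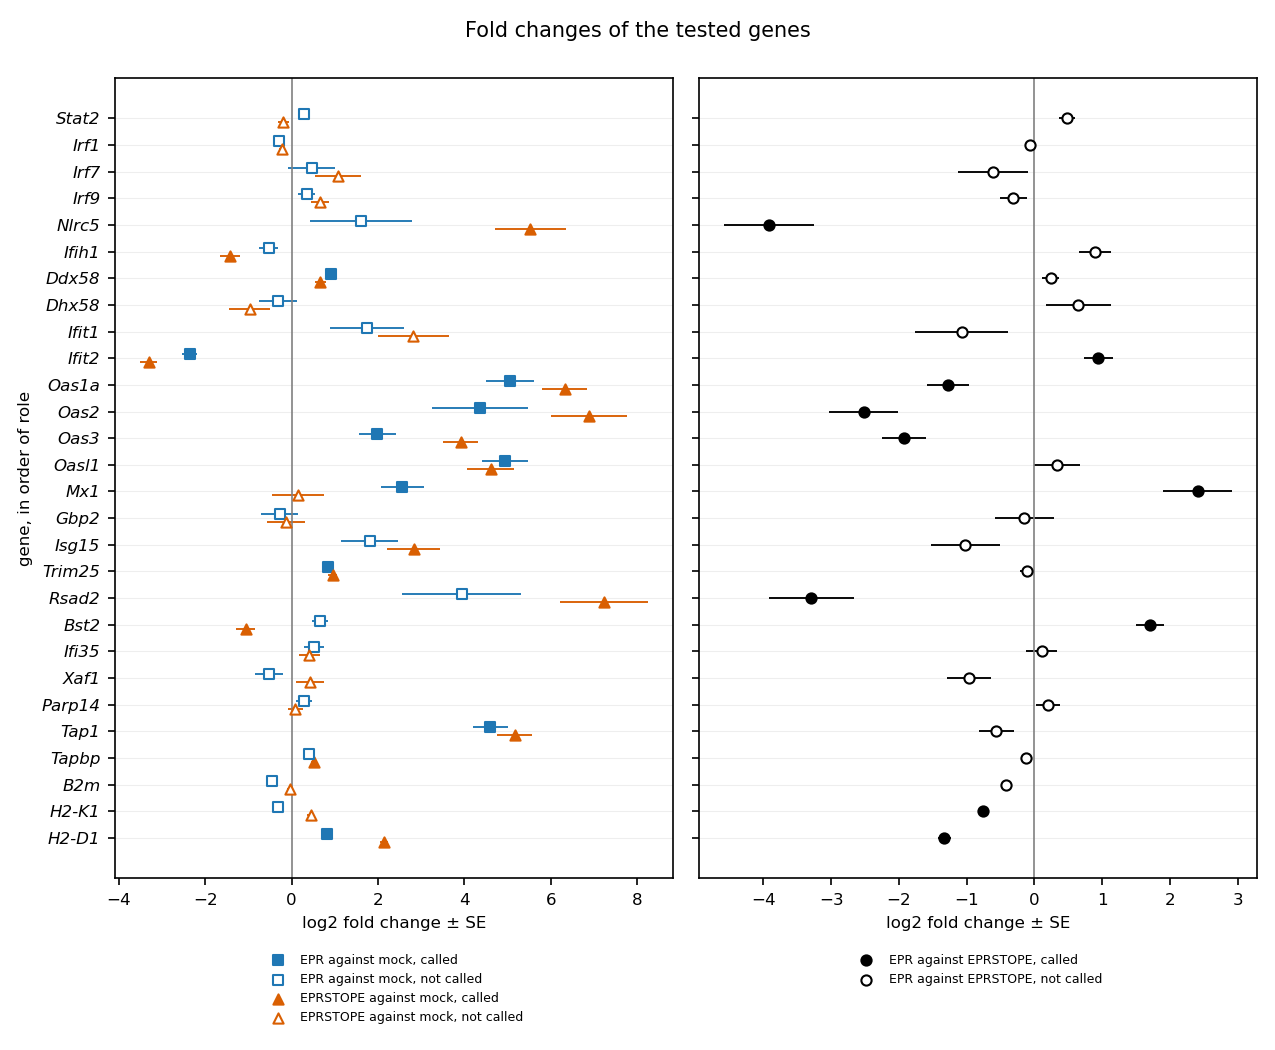
Points show the log2 fold change of the 28 tested genes (rows, in order of role) with the standard error, for EPR (squares) and EPRSTOPE (triangles) against mock on the left and for EPR against EPRSTOPE on the right. Filled points passed the limits, and *Oas1a*, *Oas2*, *Oasl1* and *Tap1* lie above 4 in both comparisons with mock, while *Bst2* and *Mx1* lie on the positive side and *Nlrc5*, *Rsad2* and *H2-D1* on the negative side on the right. *Oas2* and *Rsad2* had no counts in mock, so the sizes of their plotted fits against mock are not known.

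Of 4 genes of antigen processing 2 were tested, and both were called higher in EPRSTOPE cells, beside 15.6% of all tested genes. The peptide transporter rose by far more than its partner, but had passed the filter with no mock library at 1 CPM. *Tap1*, a subunit of the pump that carries peptides into the endoplasmic reticulum, measured 0.311, 0.106 and 0.163 CPM in mock, 4.19, 6.06 and 3.83 CPM in EPR and 6.44, 7.69 and 6.44 CPM in EPRSTOPE libraries. All 6 overexpressing libraries were far above the mock libraries. *Tap1* rose by log2 fold changes of 4.60 in EPR cells (SE 0.41, adjusted p = 1.8e-06) and 5.16 in EPRSTOPE cells (SE 0.40, adjusted p = 5e-07), from only 5 counts in the mock libraries. The difference between EPR and EPRSTOPE cells, -0.56, did not pass (SE 0.26, adjusted p = 0.13). *Tap1* shares a 19.5 kb stretch of chromosome 17 with *Psmb9* and *Psmb8*, subunits of the immunoproteasome, which had 10 and 4 counts in all 9 libraries together. The annotated spans of *Psmb9* and *Tap1* overlap at their starts on opposite strands, and whether the quantification used strand is not given in the sources used here.

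*Tapbp*, which encodes tapasin and bridges the transporter to empty class I molecules, measured 71.9, 82.0 and 72.7 CPM in mock, 99.8, 105 and 94.7 CPM in EPR and 111, 105 and 110 CPM in EPRSTOPE libraries. Each overexpressing library exceeded each mock library. The gene rose in EPRSTOPE cells by a log2 fold change of 0.52 (SE 0.07, adjusted p = 5.2e-05), just past the limit of 0.5, and its value of 0.40 in EPR cells was within it (SE 0.07, adjusted p = 0.00041). The EPRSTOPE value was 0.26 with counts scaled from TPM (adjusted p = 0.41), and 0.49 without mock library 203 or mock library 205.

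The class I chains did not move together. *H2-D1*, a class I heavy chain, measured 20.8, 21.2 and 16.2 CPM in mock, 35.4, 32.8 and 33.0 CPM in EPR and 81.8, 86.4 and 86.5 CPM in EPRSTOPE libraries. The conditions did not overlap and their means were 19.4 ± 2.79, 33.7 ± 1.41 and 84.9 ± 2.68 CPM (SD, n = 3 each). *H2-D1* rose 1.75-fold in EPR cells (log2 fold change 0.81, SE 0.10, adjusted p = 3.4e-05) and 4.41-fold in EPRSTOPE cells (log2 fold change 2.14, SE 0.10, adjusted p = 6.1e-09), and was lower in EPR than in EPRSTOPE cells by 1.33 on the log2 scale (SE 0.10, adjusted p = 9.3e-07). With counts scaled from TPM the increase in EPR cells was 0.63 and did not pass (adjusted p = 0.015). *H2-K1*, the other classical heavy chain in the list, measured 33.1, 32.3 and 36.2 CPM in mock, 28.6, 25.9 and 27.4 CPM in EPR and 47.3, 45.1 and 46.1 CPM in EPRSTOPE libraries. Its EPR libraries were the lowest and its EPRSTOPE libraries the highest. Against mock neither difference passed the fold limit (log2 fold change -0.31 in EPR, adjusted p = 0.0067, and 0.44 in EPRSTOPE cells, adjusted p = 0.00058), whereas EPR was lower than EPRSTOPE by 0.75 on the log2 scale (SE 0.08, adjusted p = 2.4e-05, and 0.015 with counts scaled from TPM).

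*B2m*, the light chain shared by all class I molecules, measured 184, 201 and 197 CPM in mock, 141, 142 and 141 CPM in EPR and 188, 192 and 186 CPM in EPRSTOPE libraries. Its EPR libraries were below all the others, with log2 fold changes of -0.46 against mock (SE 0.05, adjusted p = 2.1e-05) and -0.42 against EPRSTOPE (SE 0.05, adjusted p = 0.00012), both within the limit of 0.5. In EPRSTOPE cells its log2 fold change against mock was -0.04 (SE 0.05, adjusted p = 0.53). Class I heavy chains are highly variable between mouse strains and have near-identical copies, so that reads may be split between them by their likeness to the reference strain. Summed over 17 heavy chain genes, the level was 89.8 to 94.6 CPM in mock, 110 to 112 CPM in EPR and 190 to 195 CPM in EPRSTOPE libraries. The sum rose in EPRSTOPE cells by a log2 fold change of 1.06 (SE 0.05, adjusted p = 8.7e-09), stayed within the limit in EPR cells at 0.28 (SE 0.05, adjusted p = 0.00075), and was lower in EPR than in EPRSTOPE cells by 0.79 (SE 0.05, adjusted p = 4.6e-07).

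The upstream parts of the pathway were followed in a list of 123 further genes, of which 88 were tested. Of these, 34 were higher and 7 lower in EPR cells against mock, 30 higher and 4 lower in EPRSTOPE cells against mock, and 4 higher and 11 lower in EPR against EPRSTOPE cells, beside the shares of all tested genes given above. The median log2 fold change of the 88 was 0.42, 0.42 and -0.11. This list too was chosen with earlier results known. Some of its genes, such as *Ly6e*, *Ifi47* and *Apol9a*, passed the filter with no mock library at 1 CPM. The interferons themselves were hardly detected. Of 11 interferon genes 7 had no counts in any library, none was above 0.466 CPM, and their counts together were 13 in mock, 6 in EPR and 0 in EPRSTOPE libraries, so that differences in them were not detectable at this depth.

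The receptors, in contrast, were well expressed. Of 9 receptor and kinase genes 5 rose in EPR and 6 in EPRSTOPE cells, and none fell. Of all tested genes 15.2% were called higher and 12.9% lower in EPR cells, and 15.6% and 12.4% in EPRSTOPE cells. *Ifnar1*, a chain of the type I receptor, measured 49.4, 59.2 and 55.8 CPM in mock, 75.3, 78.3 and 76.3 CPM in EPR and 97.8, 96.9 and 94.5 CPM in EPRSTOPE libraries. It rose in EPRSTOPE cells (log2 fold change 0.81, SE 0.07, adjusted p = 1.2e-06) and reached 0.48 in EPR cells, within the limit (adjusted p = 1e-04). *Ifnar2*, the other chain, rose from 16.9 ± 1.72 CPM in mock to 42.5 ± 3.33 CPM in EPR and 48.9 ± 3.98 CPM in EPRSTOPE libraries (SD, n = 3 each). The log2 fold changes were 1.32 and 1.52 (adjusted p = 6.4e-07 and 1.7e-07).

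The chains of the interferon gamma receptor also rose. *Ifngr1* measured 83.8 ± 4.38, 183 ± 3.51 and 134 ± 5.99 CPM and *Ifngr2* 58.0 ± 3.32, 124 ± 2.75 and 103 ± 7.39 CPM in mock, EPR and EPRSTOPE libraries (SD, n = 3 each). Both were highest in EPR cells, with log2 fold changes of 1.13 and 1.09 (adjusted p = 2.6e-08 and 9.1e-08), against 0.67 and 0.82 in EPRSTOPE cells (adjusted p = 2.2e-06 and 1e-06). With counts scaled from TPM *Ifngr2* did not pass in EPRSTOPE cells (log2 fold change 0.47, adjusted p = 0.013). *Ifnar2*, *Il10rb*, *Ifnar1* and *Ifngr2* lie within 192.8 kb of chromosome 16, and the median log2 fold change of the 438 tested genes of that chromosome was -0.10 in EPR and -0.10 in EPRSTOPE cells. *Il10rb*, a chain of the interleukin-10 and interferon lambda receptors, rose by 1.25 and 1.18 (adjusted p = 2.6e-06 and 4.5e-06). The kinases *Jak1* (log2 fold change -0.30 in EPR and 0.09 in EPRSTOPE cells) and *Tyk2* (0.32 and 0.38) stayed within the limit. *Jak2*, the kinase of the interferon gamma receptor, was the remaining gene that rose in both (0.85 and 0.66). *Ifnlr1*, the specific chain of the interferon lambda receptor, was the only one of the 9 called higher in EPR than in EPRSTOPE cells (log2 fold change 1.498). *Ifngr1* and *Ifngr2* were also higher there, but within the limit (0.45 and 0.27). *Jak2* and *Ifnlr1* were named after their values were seen.

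**Figure D4:**
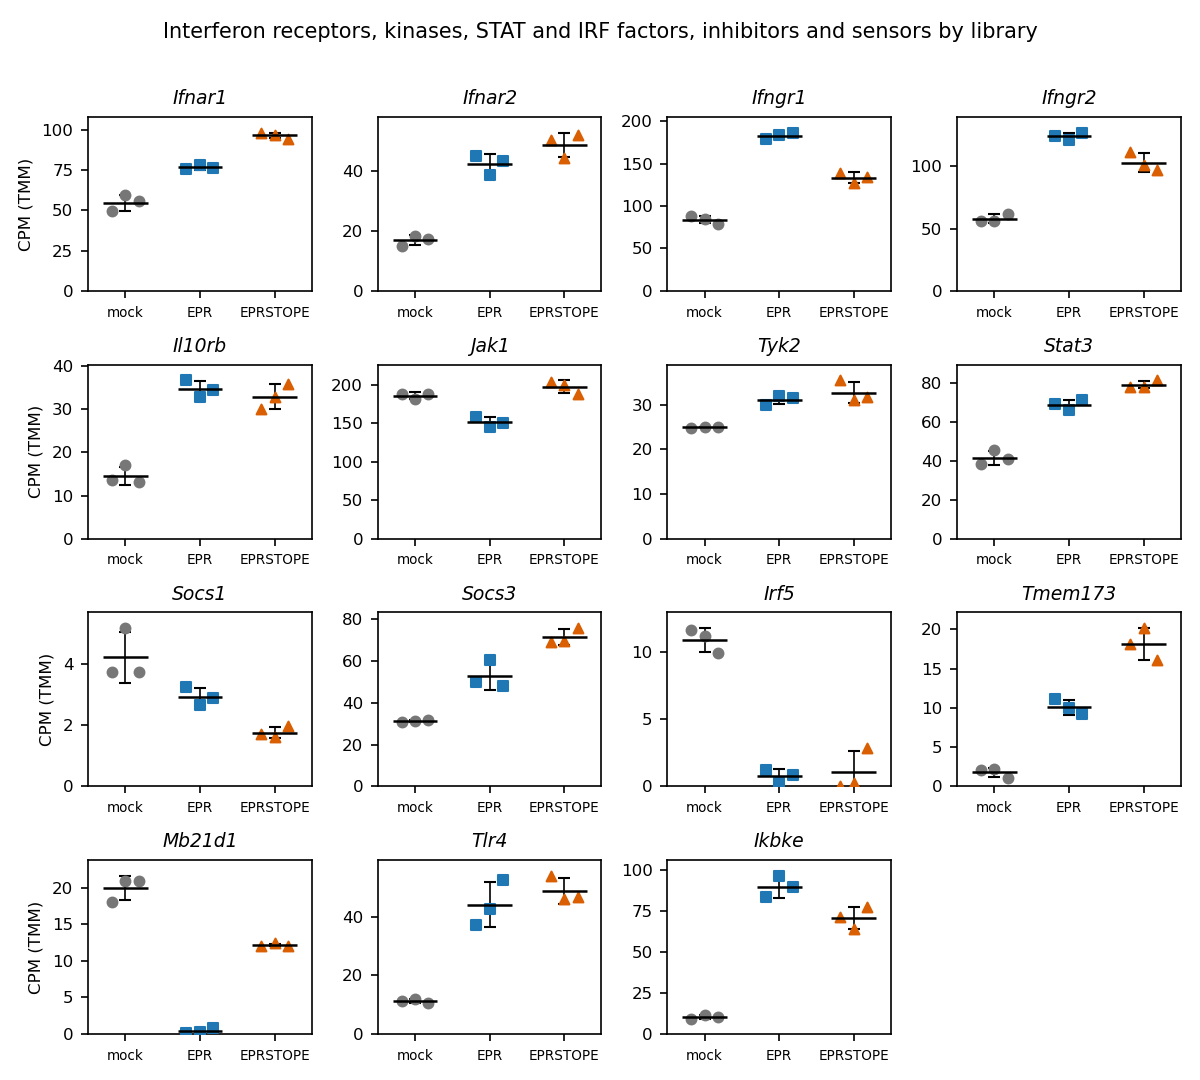
Each panel plots the level of 1 upstream gene in CPM from 0 (vertical axis) for the 3 mock, 3 EPR and 3 EPRSTOPE libraries (points), with the mean (horizontal line) and SD (bars). *Ifnar2*, *Ifngr1*, *Ifngr2*, *Il10rb*, *Tlr4*, *Ikbke* and *Stat3* are above mock in all 6 overexpressing libraries, and *Mb21d1* is near 0 in the EPR libraries.

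*Stat3*, which acts downstream of interleukin-6 type cytokines, rose by 0.73 and 0.93 (adjusted p = 4e-06 and 4.4e-07), but its values were 0.07 and 0.39 with counts scaled from TPM (adjusted p = 0.89 and 0.33). *Irf5*, an inducer of inflammatory cytokines, fell from 9.93 to 11.7 CPM in the mock libraries to 0.253 to 1.22 CPM in EPR and 0 to 2.88 CPM in EPRSTOPE libraries (log2 fold change -3.72 and -3.29, adjusted p = 0.00089 and 0.002). With counts scaled from TPM neither fall passed (log2 fold change -2.92 and -1.11, adjusted p = 0.11 and 0.53), and without EPRSTOPE library 211 the log2 fold change in EPRSTOPE cells was -6.25. *Socs3*, a feedback inhibitor of cytokine signalling, rose by 0.75 and 1.19 (adjusted p = 2.4e-05 and 4.2e-07). *Socs1*, the main brake on interferon receptors, was at 3.73 to 5.17, 2.65 to 3.23 and 1.60 to 1.96 CPM in mock, EPR and EPRSTOPE libraries and fell in EPRSTOPE cells (log2 fold change -1.26, SE 0.28, adjusted p = 0.0024), a call lost without mock library 204 or EPRSTOPE library 210 (adjusted p = 0.014 and 0.012).

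The DNA-sensing route differed strongly between conditions. *Mb21d1*, which encodes the DNA sensor cGAS, measured 18.02, 20.9 and 21.0 CPM in mock, 0.0873, 0.253 and 0.748 CPM in EPR and 12.0, 12.4 and 12.1 CPM in EPRSTOPE libraries. The EPR libraries were near 0 while the EPRSTOPE libraries kept most of the mock level. It fell by 5.72 on the log2 scale in EPR cells (SE 0.32, adjusted p = 3.8e-08) and was lower by 5.01 in EPR than in EPRSTOPE cells (SE 0.34, adjusted p = 5.6e-07), and its value of -0.72 in EPRSTOPE cells did not pass (adjusted p = 0.013). Without EPR library 208, the highest of its condition, these differences were -6.86 and -6.15. *Tmem173*, which encodes STING, the partner that relays the cGAS signal, went the other way, from 1.76 ± 0.62 CPM in mock to 10.1 ± 0.967 CPM in EPR and 18.1 ± 2.04 CPM in EPRSTOPE libraries (SD, n = 3 each). It rose by 2.56 and 3.41 on the log2 scale (adjusted p = 3e-06 and 1.9e-07). *Tlr4*, the receptor for bacterial lipopolysaccharide, rose by 1.98 and 2.12 (adjusted p = 1.8e-07 and 8.8e-08), and *Ikbke*, a kinase that activates IRF3, by 3.11 and 2.77 (adjusted p = 4.1e-10 and 1e-09). These genes belong to a list of 10 for sensing and induction, all tested, which is not limited to DNA sensing. In EPR cells 15.2% of all tested genes were called higher and 12.9% lower, and in EPRSTOPE cells 15.6% were called higher. Of the 10 listed genes 5 rose and 1 fell in EPR cells and 4 rose in EPRSTOPE cells. The others that rose, named after their values were seen, were the adaptors *Myd88* in both (0.80 and 0.96) and *Ticam1* in EPR cells (0.97).

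Of 58 further interferon-stimulated genes 41 were tested. In EPR cells 19 were higher and 4 lower than in mock, beside 15.2% and 12.9% of all tested genes. In EPRSTOPE cells 13 were higher and 1 lower than in mock, beside 15.6% and 12.4%. Between EPR and EPRSTOPE cells 3 were higher and 5 lower, beside 6.86% and 6.35%. Named after their values were seen, the genes lower in EPR cells against mock were *Ifi204*, *Slfn9* and *Apol9b* beside *Ifitm3*, and those higher in EPR than in EPRSTOPE cells were *Samd9l*, *Helz2* and *Nmi*. *Ly6e*, a surface protein that blocks coronavirus entry and fusion, went from 0.407 to 0.621 CPM in the mock libraries to 85.0 to 89.6 CPM in EPR and 128 to 142 CPM in EPRSTOPE libraries (log2 fold change 7.53 and 8.13, adjusted p = 1.5e-12 and 7.6e-13). The gene lies on chromosome 15, whose shift is given with *Krt8* and *Krt18*. *Ifitm3*, a membrane protein that restricts virus entry, was highest in mock, with 42.4 to 46.2 CPM in mock, 0 to 0.253 CPM in EPR and 0 to 1.39 CPM in EPRSTOPE libraries. It fell in both, with 1255 counts in mock, 3 in EPR and 25 in EPRSTOPE libraries, a ratio of mock to EPR of 446 with a 95% interval of 152 to 2166 (adjusted p = 3.2e-08 and 1.1e-07), and the log2 fold change in EPR cells was -8.60, or -9.56 without EPR library 207 and -8.00 without library 208. *Ifi27* and *Slfn2* followed the order of *Oas1a* and *Oas3*, at means of 1.68, 8.46 and 24.4 CPM and of 1.81, 8.24 and 23.03 CPM in mock, EPR and EPRSTOPE libraries. Both were lower in EPR than in EPRSTOPE cells, by 1.53 and 1.48 on the log2 scale (adjusted p = 3.8e-05 and 0.00012).

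Of 16 further class I presentation genes, all tested, 3 rose and 1 fell in EPR cells, where 15.2% of all tested genes were called higher and 12.9% lower, and 4 rose in EPRSTOPE cells, where 15.6% were called higher. *Tap2*, the partner of TAP1 in the pump, rose with it (log2 fold change 1.65 in EPR and 2.75 in EPRSTOPE cells), and the heavy chain *H2-T22* rose in EPRSTOPE cells (1.12), both named after their values were seen. *Psme1* and *Psme2*, which form the PA28 activator of the proteasome, rose by 1.32 and 0.63 in EPR cells (adjusted p = 5.3e-07 and 0.00013) and by 1.63 and 1.22 in EPRSTOPE cells (adjusted p = 7.3e-08 and 4.4e-07). They lie beside *Irf9* within 31.9 kb of chromosome 14, whose shift is given above, and with protein-coding transcripts alone *Psme2* was at 0.11 in EPR cells (adjusted p = 0.78). With counts scaled from TPM the changes of *Psme1* and *Psme2* in EPR cells did not pass (log2 fold changes 0.94 and 0.90, adjusted p = 0.036 and 0.028). *Psmb10*, the remaining immunoproteasome subunit, fell in EPR cells (log2 fold change -0.63, SE 0.12, adjusted p = 0.00075) and was at 0.05 in EPRSTOPE cells (adjusted p = 0.76). The decrease of *Psmb10* did not pass with counts scaled from TPM (-0.62, adjusted p = 0.037) or with protein-coding transcripts only (-0.66, adjusted p = 0.15). *Calr*, a chaperone of the loading complex, was lower in EPR than in EPRSTOPE cells by 0.57 on the log2 scale (SE 0.05, adjusted p = 6.2e-06), and with protein-coding transcripts only the difference of *Calr*, -0.49, stayed within the limit. Of 7 class II genes only *H2-DMa* was tested, and it rose in EPRSTOPE cells (log2 fold change 1.65, SE 0.35, adjusted p = 0.0019), whereas *H2-Aa*, *H2-Ab1* and *H2-Eb1*, the chains that present peptides on professional antigen-presenting cells, had no counts in any library.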

How the data were processed

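RNA-Seq libraries were made from total RNA with a stranded kit and read as pairs of 75 bases. The authors ran Kallisto 0.43.1 against the Gencode vM15 transcript set. Each deposited file gives, per transcript, the estimated count, which is not normalized, and the TPM value, which is scaled by effective length. The submitters' processing notes also name bcl2fastq 2.0. Estimated counts were summed per gene symbol and rounded. The 15370 genes that reached 1 CPM in 3 or more libraries were tested with edgeR 4.0.16 in R 4.3.3 (TMM, quasi-likelihood, 1 factor of 3 levels over 9 libraries, Benjamini-Hochberg adjustment). The limits (adjusted p under 0.01, log2 fold change beyond 0.5 in size) and the filter take their values from the study's methods. The study applied them to single transcripts and tested these with limma, and the legend of its figure of shared changes gives stricter limits. Library totals ran from 5972457 to 11876435 estimated counts. Ratios from 1 to 3 counts have exact 95% intervals, which cover counting error only. The F statistic gave the standard errors.

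The members and lists were chosen with earlier results of these data known. Values in every library are given for members called in at least 1 of the 3 comparisons whose highest condition averaged 5 CPM or more and for *Stat2*, *Irf9*, *B2m*, *H2-K1* and *H2-D1*. Of the 8 pathway lists, *Ifnar1*, *Ifnar2*, *Ifngr1*, *Ifngr2*, *Jak1*, *Tyk2* and *Socs1* are named, and per list up to 4 called genes whose highest condition averaged 10 CPM or more, by the size of the log2 fold change. One gene of this rule is not reported here. *H2-DMa* is named beside its list's count of 1. Positions came from Gencode M21 on GRCm38 and promoters from RefSeq on GRCm38.p6; no promoter window is given for *Dhx58*, *Mx1*, *Mx2*, *Nlrc5*, *Oas2*, *Parp14*, *Rtp4*, *Usp18* and *Zbp1*. The script was tested on simulated counts. Alternatives were DESeq2 1.42.0, limma 3.58.1 with voom, other size factors, filters, limits and transcripts, counts scaled from TPM, fits of the compared groups alone and leaving out each library. Summing near-identical copies was added after the data were seen. Each pair of libraries of a condition differed by more than counting noise. Python 3.11.15 was used for the remaining steps.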

Additional observations from a re-analysis of the deposited data

How the results depend on the processing

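No paired analysis was possible because the library numbers 203 to 211 are not shared between conditions. For single genes, 1539 of 1640 values under an alternative kept their side of the limits, and those that passed also kept their direction. Direction was not compared for values that passed in neither fit. A further 90 kept the direction and no longer passed, and 10 kept it and newly passed. Of the values that passed in either fit, 1 reversed, the log2 fold change of *Ifit2* for EPR against EPRSTOPE. It was -0.021 with counts scaled from TPM. Counts scaled from TPM account for 24 of the 90 and leaving out 1 library for 45. With at least 10 counts in every library, which removes the rare genes from the test, 4 members were higher in EPR cells and 4 in EPRSTOPE cells against mock, and 2 were lower in EPR than in EPRSTOPE cells. Members lower in EPR cells against mock numbered 2 without a filter, 2 with protein-coding transcripts only and 4 at an adjusted p under 0.05 with no minimum fold. Members higher in EPR than in EPRSTOPE cells numbered 1 with counts scaled from TPM and 5 at an adjusted p under 0.05 with no minimum fold, and members lower numbered 2 with counts scaled from TPM; *Nlrc5*, *Rsad2* and *Mx1* were among the calls between EPR and EPRSTOPE cells that this scaling ended (adjusted p = 0.012, 0.011 and 0.014). Leaving out 1 library gave 1 to 3 higher and 4 to 7 lower members between EPR and EPRSTOPE cells, the lowest without EPR library 206 or 208 or EPRSTOPE library 209. The shares of all tested genes called under these other settings are not given here. These member counts therefore show only how the calls moved, not an excess or a lack among the members. Depth limits the members with 3 counts or fewer in mock, whose folds are known only as bounds or wide intervals.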
